A study of Homo sapiens with 12 samples.

Results

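U-HO1 is an established line of classical Hodgkin lymphoma, a tumour of B-cell origin. The 6 U-HO1 arrays of the series, out of 12 in all, were ranked here by their deposited GATA3 value, and the sides were chosen by that value alone, as 3 arrays with higher against 3 arrays with lower GATA3, whatever their shRNA label. The other 6 arrays are of L-1236, another line of the same tumour, grown in RPMI medium and given the same shRNAs. U-HO1 cells, grown in IMDM medium, were transduced with shRNA that targets GATA-3 or with a control shRNA that has no function. Both kinds of cells were kept in culture for 3 days and sorted for the GFP of the vector, so transduction, GFP expression and sorting are shared by every array of the line. RNA of 25000 sorted cells per sample was amplified before hybridisation to a whole-transcript Affymetrix array. Each label stands on 3 arrays per line, which the submitters call independent without saying whether cultures or transductions were separate, so errors and tests cover array-to-array spread, which may be technical. The arrays are called control 1 to 3 and knockdown 1 to 3 by label and replicate number only. The higher side holds control 1, knockdown 1 and control 2, and the lower side holds knockdown 2, control 3 and knockdown 3.

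GATA3 is a zinc-finger transcription factor that directs T-helper 2 differentiation and is needed there for expression of the cytokines IL5, IL4 and IL13. Normal mature B cells lack it. The Reed-Sternberg cells of Hodgkin lymphoma express it together with many cytokines and chemokines, of which CCL17 and CCL22 attract T-helper 2 cells.

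GATA3 read 11.24 on control 1, 11.07 on knockdown 1 and 10.90 on control 2, and 10.12 on knockdown 2, 10.24 on control 3 and 10.22 on knockdown 3, all on the log2 scale of the deposited values. The split lies in the gap between 10.90 and 10.24. The means of the sides differed by 0.87, which was the second largest positive difference among 18404 genes, after IL5. GATA3 went against the labels on some arrays, since knockdown 1 read above control 2 and control 3. The same sides are obtained from the order in which the series lists the arrays, in which the higher 3 come first, so GATA3 and anything that follows that order cannot be told apart. GATA3 chose the sides and every gene was measured on the same arrays, so differences between the sides are descriptions without a test. An entry is called here when the 3 higher and 3 lower arrays do not overlap and their means differ at least 1.5-fold.

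Array medians in U-HO1 lay between 7.004 and 7.06. The first principal component, with 39.5% of the variance, did not follow the split. The third, with 18.6%, separated the sides, though control 2 (-0.13) and control 3 (-0.15) lay next to each other on it. Each array correlated with its closest other U-HO1 array at 0.994 to 0.995, and for control 1, knockdown 1, control 2 and knockdown 2 that array lay on the other side. The list means of 13 Reed-Sternberg markers, GATA3 among them, ran from 9.79 to 9.95. Members differed in level: TNFRSF8 (CD30) and IRF4 read between 10.04 and 11.54, and CCL22 between 6.75 and 7.39. Of 10 T-cell, 7 myeloid and 5 plasma-cell markers measured, 0 were without overlap between the sides, and 1 of 9 mature B-cell markers was. Of all genes 5.73% were higher and 6.29% lower without overlap. The list means of the T-cell markers ran from 6.24 to 6.37 on the higher side and from 6.19 to 6.28 on the lower side, below the median probe set mean of 7.04. In RNA of a whole sort, fewer cells of a type and less RNA per cell cannot be told apart.

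IL5, the eosinophil growth factor, had the largest positive difference of all genes. It read 8.64 on control 1, 7.86 on knockdown 1 and 8.14 on control 2, and 7.40, 6.83 and 7.29 on knockdown 2, control 3 and knockdown 3. The means were 8.21 ± 0.39 (SD, n = 3) and 7.18 ± 0.30 (SD, n = 3), a 2.05-fold difference, and the sides did not overlap. The difference was 1.56 between arrays labelled control and 0.51 between arrays labelled knockdown. Because the sides did not overlap, its sign within a label was fixed and only its size could vary. Knockdown 1 read lower than control 1 and control 2 but above all 3 arrays of the lower side.

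Of the other T-helper 2 cytokines IL13 did not follow IL5, and IL4 was too dim to be judged. IL13, which lies in the same gene cluster and is a growth factor of Hodgkin cells, read 7.66, 7.17 and 7.45 on control 1, knockdown 1 and control 2 against 7.75, 7.28 and 7.34 on the other side, a difference of -0.03 with overlap. IL4 read 5.66 to 5.79 on all 6 arrays. Of 10 protein-coding genes that flank IL5, a set chosen after IL5 was seen, RAD50 was higher without overlap (0.27), SLC22A5 and SLC22A4 were lower, and the median difference was -0.02. Of all genes 5.73% were higher and 6.29% lower without overlap.

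CCL17 read 8.92, 8.73 and 9.10 on the higher-GATA3 side and 9.14, 9.11 and 9.17 on the lower, a difference of -0.22 with a gap of 0.01 between the sides. TNFRSF8 read 10.21, 10.04 and 10.09 against 10.24, 10.50 and 10.39, a difference of -0.26. CCL22 differed by -0.28 with overlap, while CXCL10, an interferon-induced chemokine, differed by 0.54 (11.47, 10.81 and 10.94 against 10.67, 10.30 and 10.63). Of 21 Hodgkin chemokines 2 were higher and 1 lower without overlap, with a median of 0.01, against 5.73% higher and 6.29% lower of all genes. Over the 13 Reed-Sternberg markers 6 were positive and 7 negative with a median of -0.04, and 5 were lower without overlap, with IRF4 at -0.36, BATF3 at -0.28 and STAT6 at -0.40 beside TNFRSF8 and CCL17, and 1, GATA3 itself, was higher. STAT4, a T-helper 1 factor, differed by 0.05.

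**Figure D1:**
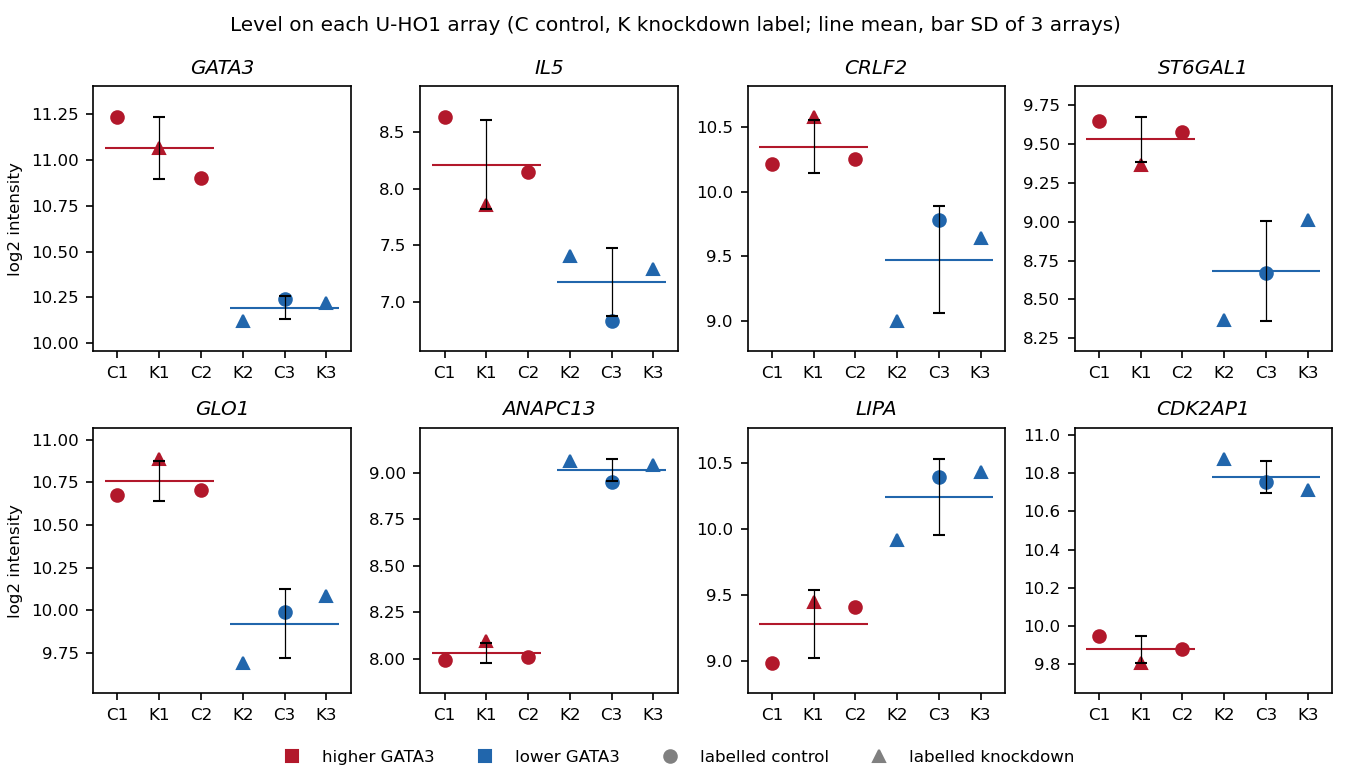
Level of GATA3, IL5 and 3 genes each way on each of the 6 U-HO1 arrays (y axis, log2 intensity). The 3 each way have the largest difference among genes without overlap and with a mean of at least 7.04. Lines give the mean and bars the SD of 3 arrays. For GATA3 and the genes chosen by difference, the rule itself set that red and blue arrays do not overlap. IL5 did not overlap either. For ANAPC13 the gap of 0.86 is far wider than the spread on either side (SD 0.05 and 0.06).

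Among 32321 probe sets 28 were called higher (0.0866%), GATA3 among them, and 51 lower (0.158%). By gene these are 25 of 18404 (0.136%) and 37 (0.201%). Without a demand on fold, 1055 genes (5.73%) were higher without overlap and 1157 (6.29%) lower. The number called rests on which arrays enter: it was 59 higher without control 2 and 48 without control 3, and 93 lower without knockdown 1 and 127 without knockdown 2. The fold limit cuts through a continuum, with CXADR at 0.586, ZNF721 at -0.591 and SLFN5 at -0.593 just inside and MYD88 at -0.584, CFAP119 at 0.584 and PACRGL at 0.582 just outside.

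CRLF2, the receptor chain for the T-helper 2 promoting cytokine TSLP, read 10.21, 10.58 and 10.26 on control 1, knockdown 1 and control 2 and 9.78 on control 3, 9.64 on knockdown 3 and 9.001 on knockdown 2, a difference of 0.87. ST6GAL1, which adds sialic acid to glycoproteins such as CD22 ligands, read 9.65, 9.37 and 9.58 against 8.37, 8.67 and 9.01, a difference of 0.85. Knockdown 2 was the lowest array for both. CHRNA6, a nicotinic receptor subunit, differed by 0.75, but its sides were only 0.13 apart because knockdown 2 read 7.54 and the other lower arrays 8.44 and 8.43. JAM3, a junctional adhesion molecule, differed by 0.74.

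GLO1, the glyoxalase that clears methylglyoxal, read 10.67, 10.89 and 10.71 against 9.69, 9.99 and 10.08, a difference of 0.83. DCTD, the deaminase that supplies dUMP for thymidylate synthesis, read 10.66, 10.72 and 10.62 against 9.54, 10.03 and 10.08, a difference of 0.78. The higher sides of both genes were tight and their lower sides were spread by knockdown 2. CLTA, a clathrin light chain, had the opposite form, with a lower side at 8.66, 8.69 and 8.65 and a higher side at 9.46, 9.41 and 9.11.

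GBP4 and LY6E, both inducible by interferon, were higher as well. GBP4 read 10.08, 9.49 and 9.50 against 9.04, 8.64 and 9.03 (0.79), and LY6E read 9.94, 9.63 and 9.61 against 9.09, 8.77 and 8.82 (0.83). The interferon response list had 40 measured members with a median difference of -0.05. In that list 2 members were higher and 2 lower without overlap, against 5.73% higher and 6.29% lower of all genes. 

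The 15 genes were taken among those with a mean over 12 arrays of at least 7.04, which leaves out IL5. The remaining ones were IQCK, IFT57, PLEKHA3, IFT22, FAM227A and WDR19, with differences of 0.67 to 0.78. IFT57 and IFT22 are subunits of intraflagellar transport complex B and WDR19 of complex A, the trains that carry cargo along the primary cilium. IFT57 read 8.93, 8.95 and 8.84 against 8.06, 8.12 and 8.22, so both sides were tight beside the gap of 0.62 between them.

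**Figure D2:**
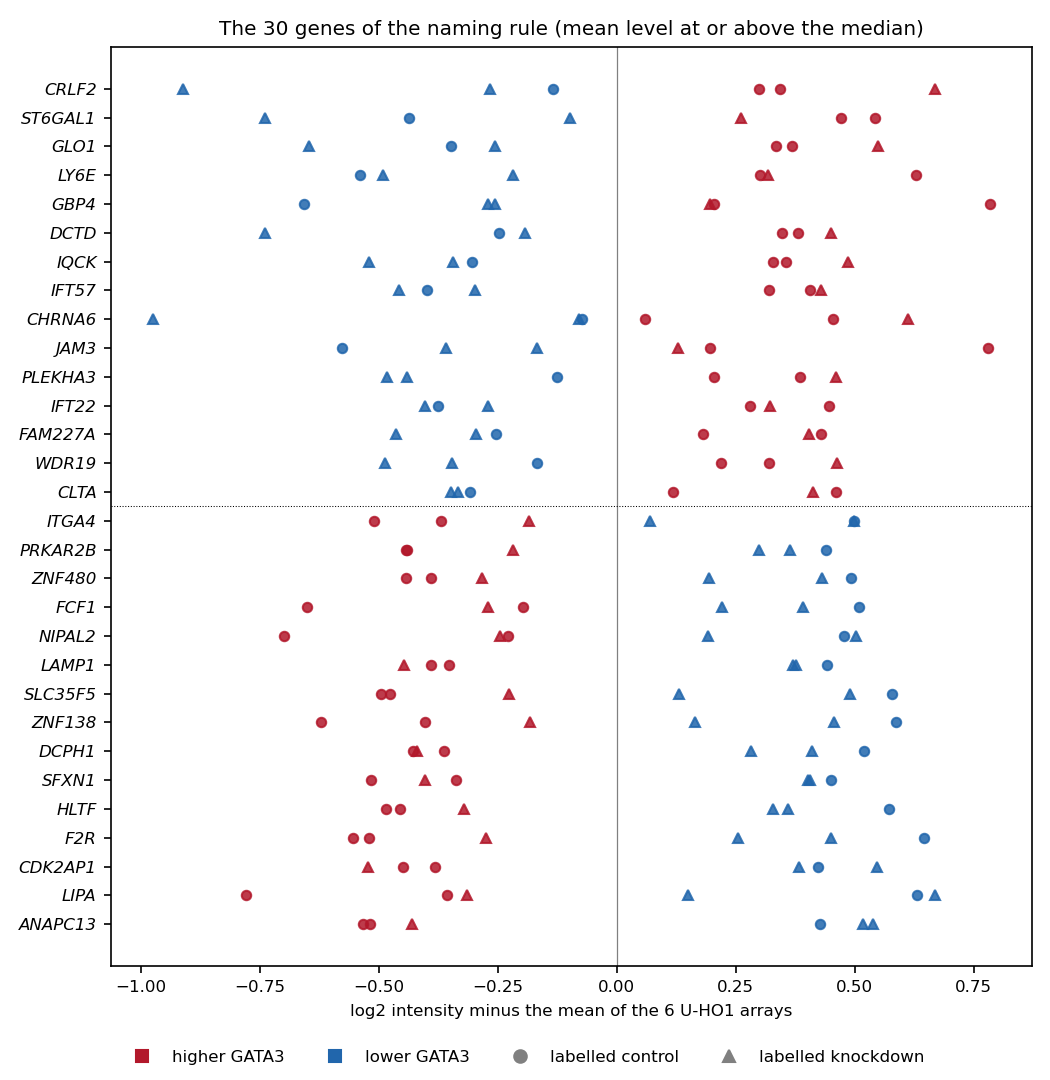
The 15 genes with the largest difference each way among those without overlap and with a mean of at least 7.04 (IL5 falls below), each row 1 gene and each point 1 U-HO1 array (x axis, log2 intensity minus the gene's mean over 6 arrays). By the rule that chose them the colours never mix in a row. What was not set by the rule is the shape within a side: tight for IFT57, SFXN1 and LAMP1, and spread by 1 array for CHRNA6 and GBP4.

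GATA factors bind a core of GATA with A or T before it and A or G after it, and the promoters of these 30 genes were searched for it on both strands. RefSeq promoters of the GRCh38.p14 assembly, 250 bases before to 50 after the start, were at hand for 10 of the 15 higher and 12 of the 15 lower genes. The core was in 2 of the 10 and in 1 of the 12 (8.33%), against 19.5% of 14230 promoters of genes on the array and 25.0% of all 35116 promoters. The 3 promoters with a match are printed 5′ to 3′ on the strand of the gene, with the core or its reverse complement in capitals. They are the ones among the promoters at hand that hold it, and the remaining genes of the 30 were not searched.
GBP4, chr1:89198893-89199192, minus strand: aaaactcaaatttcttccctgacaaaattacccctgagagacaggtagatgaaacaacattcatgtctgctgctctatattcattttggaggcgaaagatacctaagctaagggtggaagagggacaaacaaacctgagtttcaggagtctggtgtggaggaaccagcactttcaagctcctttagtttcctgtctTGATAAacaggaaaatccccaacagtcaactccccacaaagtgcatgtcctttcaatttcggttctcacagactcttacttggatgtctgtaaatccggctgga
CLTA, chr9:36190671-36190970, plus strand: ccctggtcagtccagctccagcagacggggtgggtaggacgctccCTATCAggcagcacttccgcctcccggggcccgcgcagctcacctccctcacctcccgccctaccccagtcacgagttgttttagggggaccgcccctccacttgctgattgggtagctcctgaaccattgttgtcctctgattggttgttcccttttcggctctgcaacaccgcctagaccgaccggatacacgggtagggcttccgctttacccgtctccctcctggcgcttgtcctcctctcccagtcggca
SLC35F5, chr2:113756593-113756892, minus strand: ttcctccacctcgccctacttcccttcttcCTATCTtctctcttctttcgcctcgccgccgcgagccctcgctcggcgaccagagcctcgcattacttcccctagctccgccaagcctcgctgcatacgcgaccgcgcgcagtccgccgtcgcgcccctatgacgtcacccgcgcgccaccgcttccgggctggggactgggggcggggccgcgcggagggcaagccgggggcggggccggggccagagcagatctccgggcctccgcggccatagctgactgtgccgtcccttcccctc
The match starts at -54 from the transcription start in GBP4, at -205 in CLTA and at -220 in SLC35F5. A match describes letters only. GBP4 and CLTA were higher and SLC35F5, a transporter-family protein, lower on the higher-GATA3 arrays.

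ANAPC13, a small subunit of the anaphase-promoting complex, had the largest negative difference of the 15. It read 7.99, 8.09 and 8.01 on control 1, knockdown 1 and control 2 and 9.06, 8.95 and 9.04 on knockdown 2, control 3 and knockdown 3, a difference of -0.99. SFXN1, a mitochondrial serine carrier, read 10.21, 10.15 and 10.03 against a mean of 10.97 ± 0.03 (SD, n = 3) on the other side (-0.84). CDK2AP1, an inhibitor of CDK2, read 9.95, 9.81 and 9.88 against 10.88, 10.75 and 10.71 (-0.90). In these genes both sides were tight. Between control arrays and between knockdown arrays the difference was -0.95 and -0.96 for ANAPC13, -0.88 and -0.81 for SFXN1 and -0.84 and -0.99 for CDK2AP1.

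Lysosomal LIPA and LAMP1 were lower too. LAMP1, the main lysosomal membrane glycoprotein, read 8.40, 8.31 and 8.36 against 9.13, 9.20 and 9.13, a difference of -0.79. LIPA, the acid lipase that frees cholesterol from lysosomal esters, read 8.99, 9.45 and 9.41 against 9.92, 10.40 and 10.43, a difference of -0.97. Of 23 lysosomal genes, a list chosen after seeing the data, 3 were lower without overlap (CTSC at -0.38 beside these) and 0 higher, with a median of -0.04, and 1 of 21 without LIPA and LAMP1, which prompted the list, against 6.29% of all genes. Of 13 genes of the anaphase-promoting complex, a list chosen in the same way, 2 were lower without overlap (ANAPC13, and CDC23 at -0.40) and the median was -0.06, or 1 of 12 without ANAPC13.

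The other genes of the 15 were F2R, the thrombin receptor (-0.90), HLTF, a DNA translocase of damage tolerance (-0.84), DCPH1 (-0.81), ZNF138 (-0.80), SLC35F5 (-0.80), NIPAL2 (-0.78), FCF1, a ribosomal RNA processing factor (-0.75), ZNF480 (-0.74), PRKAR2B, a regulatory subunit of protein kinase A (-0.73), and ITGA4, the integrin alpha chain of VLA-4 (-0.71). Second probe sets disagreed in size for ZNF138 (-0.12) and SLC35F5 (-0.43). For ITGA4 the sides were 0.25 apart, with 8.35, 8.67 and 8.49 against 8.93, 9.35 and 9.35.

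The median difference over all 18404 genes was 0.01. Among 24 genes of the T-helper 2 programme the median was 0.01, and 4 were higher without overlap, IL5, CRLF2 and RAD50 among them, and 2 lower, one of them STAT6. STAT6, the signal transducer of IL4 and IL13, read 10.14, 10.44 and 10.28 against 10.64, 10.74 and 10.68. Of 16 T-helper 1 genes 1 was higher (IL18RAP, 0.19). Of 26 GATA factors, partners and upstream regulators 1 was higher, GATA3 itself, and of 31 genes known from other cells as bound by or dependent on GATA3, 4 were higher and 2 lower, against 5.73% higher and 6.29% lower of all genes. CDH1, E-cadherin, was among them at 0.52.

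Of 21 JAK-STAT genes 18 had a negative difference, against 8780 of all 18404 genes. In that list 4 were lower without overlap (6.29% of all genes), including the feedback inhibitors CISH (-0.36) and PIAS1 (-0.20), and 1 was higher (5.73%). The NF-kB list of 23 held MAP3K14, the kinase of the non-canonical branch, at 0.51 (9.72, 9.76 and 9.58 against 9.10, 9.29 and 9.15), while NFKB1 (-0.23), TNIP1 (-0.18) and IKBKE (-0.14) were lower. Of 26 cytokine receptors 4 were higher and 2 lower without overlap, against 5.73% and 6.29% of all genes. IL3RA, which pairs with the IL5 receptor's shared beta chain, differed by 0.35, and IL21R by -0.27. Among 27 immediate early genes 4 were higher and 0 lower without overlap, against the same shares, with DUSP6 at 0.37 and JUND at 0.26.

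Over all genes 6.29% were lower and 5.73% higher without overlap. Of 29 S-phase genes 6 were lower and 1 higher without overlap, with a median of -0.10, MCM10, a replication initiation factor, at -0.51 and POLA1, of DNA polymerase alpha, at -0.30. G2 and M phase genes had 1 of 29 lower and a median of -0.02. Of 24 p53 targets and apoptosis genes 5 were lower, with MCL1 at -0.35 and TNFRSF10B at -0.31, and 2 higher, with MDM2 at 0.40. The sides of MDM2 were only 0.007 apart, with a difference of 0.009 between control arrays and 0.70 between knockdown arrays. Among 23 genes of cholesterol and fatty acid synthesis 19 were negative (8780 of 18404 over all genes) with a median of -0.14, but only IDI1 (-0.52) and MVD (-0.36) were lower without overlap, and ACLY was higher (0.34).

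Genes of the primary cilium were chosen as lists after IFT57, IFT22 and WDR19 were seen, so the counts that follow support nothing on their own. Of 23 intraflagellar transport genes 10 were higher and 0 lower without overlap, with a median of 0.18. The shares over all genes were 5.73% higher and 6.29% lower. All 5 measured subunits of cytoplasmic dynein 2, the motor that returns these trains, were higher without overlap, from 0.15 for DYNLT2B to 0.54 for DYNC2LI1. Of 11 genes of the BBSome, the coat that ferries ciliary membrane proteins, and its chaperonins, 5 were higher and 0 lower, with ARL6 at 0.48 and BBS1 at 0.42.

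The ciliary transition zone, the gate at the base of the cilium, gave 9 of 19 higher and 0 lower, with TMEM67 at 0.61 and TCTN2 at 0.56. TMEM67 read 7.42, 7.59 and 7.40 on the higher-GATA3 arrays and 6.91, 6.90 and 6.78 on the others. Over the 4 lists, 29 of 58 genes (50%) were higher without overlap, against 5.73% of all genes, and 26 of 55 (47.3%) when IFT57, IFT22 and WDR19 were left out. The mean level of the 58 genes was 7.65, 7.73 and 7.61 on control 1, knockdown 1 and control 2 and 7.39, 7.48 and 7.43 on knockdown 2, control 3 and knockdown 3. Of 10 genes for RFX factors and FOXJ1, transcription factors of cilium genes, 0 were without overlap.

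**Figure D3:**
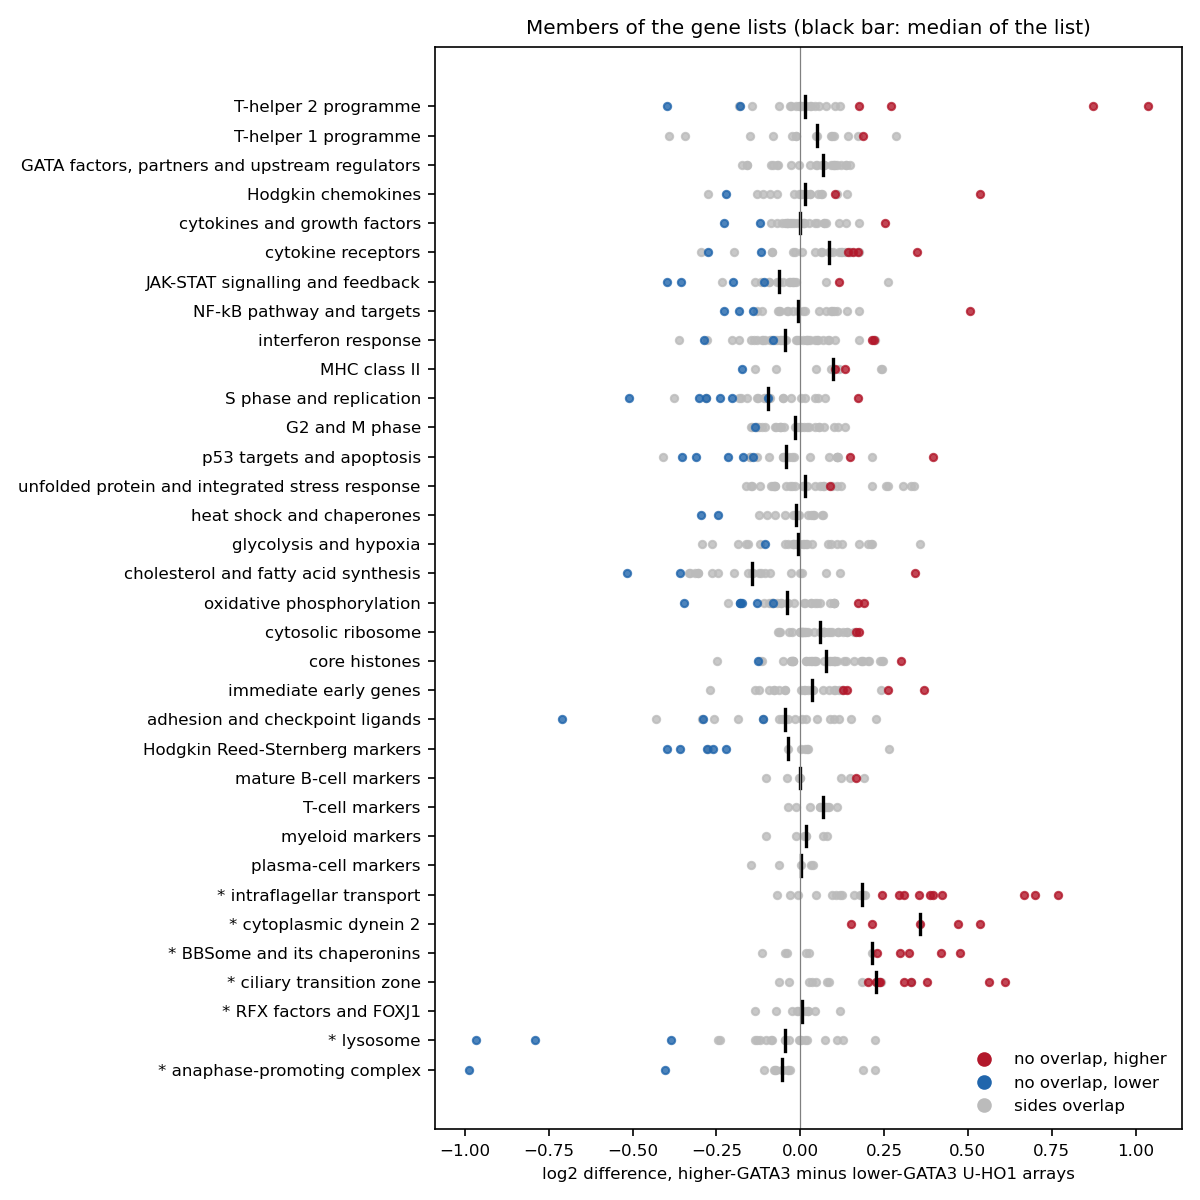
Difference of each measured list member between the higher-GATA3 and lower-GATA3 U-HO1 arrays (x axis, log2), with GATA3 left out and lists chosen after seeing the data marked with a star. Most lists straddle 0 with few coloured points. The 4 ciliary lists, starred and near the foot, have medians of 0.18 to 0.36 and hold red points with no blue one.

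L-1236 arrays were not used to choose the sides, so each probe set could be tested there against GATA3. GATA3 in L-1236 read 10.29, 10.80 and 10.69 on control 1, knockdown 1 and control 2 and 10.00, 9.95 and 10.24 on knockdown 2, control 3 and knockdown 3. Here too the 3 highest arrays were the 3 listed first, so GATA3 and listing order cannot be told apart in either line. With limma, 0 of 32320 probe sets had a slope on GATA3 at an adjusted p under 0.05 (0%; smallest adjusted p = 0.220, for GOLIM4), and 1200 (3.71%) had an unadjusted p under 0.05. That count was 2266 without knockdown 1, 794 without control 2 and 673 without knockdown 2. Of the 27 probe sets other than GATA3 called higher in U-HO1, 22 had a positive slope in L-1236 and 13 of these an unadjusted p under 0.05, against 1.82% of all probe sets. Of the 51 called lower, 45 had a negative slope and 9 of these an unadjusted p under 0.05, against 1.89%. By direction alone 59.4% of all probe sets had a slope of the sign of their U-HO1 difference. Among the 3406 without overlap in U-HO1 at any fold, the called ones included, it was 72.8%.

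When the U-HO1 rule was applied to L-1236, as a description chosen after seeing the data, many of the same genes separated. Of the 27 probe sets 12 (44.4%) were higher without overlap in L-1236 too and 0 lower, against 7.61% of all probe sets. Of the 51 there were 29 (56.9%) lower and 0 higher, against 5.57%. With the fold limit in both lines 4 remained on the higher side, 14.8% of those called in U-HO1 and 28.6% of the 14 called in L-1236. On the lower side 17 remained, 33.3% of those called in U-HO1 and 25.0% of the 68 called in L-1236. Both limits together were met in L-1236 by 0.0433% of all probe sets on the higher and 0.210% on the lower side.

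By gene these 4 were GLO1, DCTD, CHRNA6 and CLTA, and 15 genes were lower in both lines: ANAPC13, LIPA, CDK2AP1, HLTF, SFXN1, DCPH1, LAMP1, FCF1, ZNF480, ZDHHC16, UHMK1, DYNLT3, ZNF253, ZNF766 and CD164. LAMP1 in L-1236 read 8.30, 8.37 and 8.32 on control 1, knockdown 1 and control 2 and 9.05, 8.89 and 9.10 on knockdown 2, control 3 and knockdown 3, so that the arrays fell into 2 levels. HLTF read 7.88, 8.22 and 8.53 against 9.17, 9.34 and 9.69, a difference of -1.19. ANAPC13 read 7.75, 7.49 and 8.11 against 8.51, 8.40 and 8.73, a difference of -0.76.

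DCTD had the order of GATA3 in L-1236 apart from the top pair of arrays, from 9.28 on control 3 and 9.37 on knockdown 2 over 9.83 on knockdown 3 and 9.99 on control 1 to 10.47 on control 2 and 10.23 on knockdown 1. Its slope was 1.26 per unit of log2 GATA3 (SE 0.20, limma adjusted p = 0.797). Pearson's r was 0.940 and Spearman's rho 0.943 over 6 arrays (exact permutation, two-sided, p = 0.0181 for r; Benjamini-Hochberg over 37 genes 0.240), and r was 0.998 without the 2 arrays farthest from the median. PLEKHA3 had r = 0.903 (exact permutation p = 0.00278; adjusted over 37 genes 0.103). LY6E had r = 0.860 (exact permutation p = 0.0194), but r was -0.06 without the 2 farthest arrays, so the relation rests on those. Of the 15 higher genes 13 had a positive r and 7 an unadjusted exact permutation p under 0.05, 1 of them negative (JAM3), and of all 37 genes 0 passed the adjustment. Of the 15 lower genes 15 had a negative r and 0 an unadjusted p under 0.05, but the arrays fell into separate levels for LAMP1 and others, so no single r is given.

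Some U-HO1 differences had no counterpart in L-1236. IL5 read 5.47 to 5.61 on all 6 L-1236 arrays, a dim signal with a slope of 0.02 (SE 0.12). CRLF2 and ST6GAL1 were dim as well, at 6.41 to 6.69 and 6.14 to 6.34. F2R read 6.22 to 6.65 with a slope of -0.01 (SE 0.19). JAM3 had a slope of -0.32 (SE 0.13), opposite to its U-HO1 difference.

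GBP4 had a slope of -1.32 (SE 0.86) in L-1236, also opposite to U-HO1. On the interferon response list 39 of 40 slopes were negative there with a median of -1.32, while 52.4% of all genes had a positive slope. Of the 40, 9 had a negative slope at an unadjusted p under 0.05, and 0 were lower and 1 higher without overlap between the L-1236 arrays, and the part of that list in the GBP4 slope was not tested. Ciliary genes had 45 of 58 positive slopes, against that 52.4%. At an unadjusted limma p under 0.05, 8 were positive and 0 negative (1.90% and 2.03% of all genes), TCTN2 with 0.66 and IFT56 with 0.52 among them. The mean level of the 58 genes in L-1236 was 7.61, 7.71 and 7.70 on control 1, knockdown 1 and control 2. On knockdown 2, control 3 and knockdown 3 it was 7.58, 7.58 and 7.63, so these means overlapped. Without overlap in L-1236, 14 of the 58 were higher (24.1%, against 8.09%) and 1 lower (7.14% of all genes). In both lines 11 were higher, against 234 of all 32320 probe sets other than GATA3. The lists differed in L-1236. Of 23 intraflagellar transport genes 7 were higher and 0 lower without overlap, and of 19 transition zone genes 5 and 0. Of 5 cytoplasmic dynein 2 subunits 0 were without overlap. Of 11 BBSome and chaperonin genes 2 were higher and 1 lower, with a median of -0.07.

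**Figure D4:**
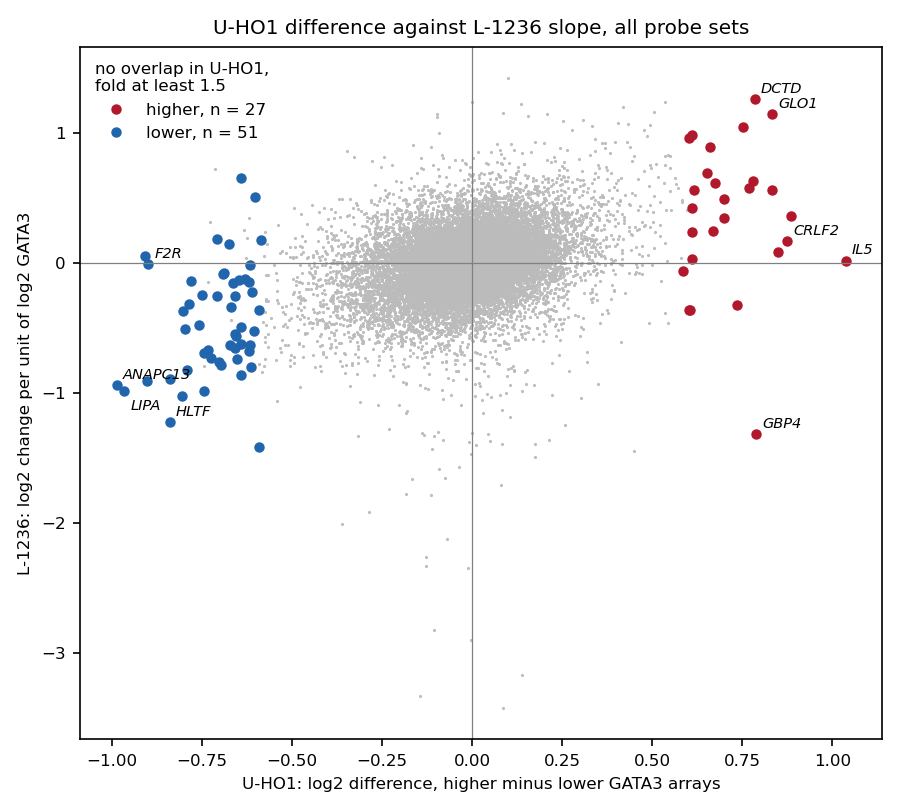
Difference between U-HO1 sides (x axis, log2) against the L-1236 slope on GATA3 (y axis, log2 per unit of log2 GATA3) for 32320 probe sets, with those called in U-HO1 in colour. Of the red points 22 of 27 lie above 0 and of the blue points 45 of 51 below, while IL5 and F2R lie near 0 and GBP4 far below.

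**Figure D5:**
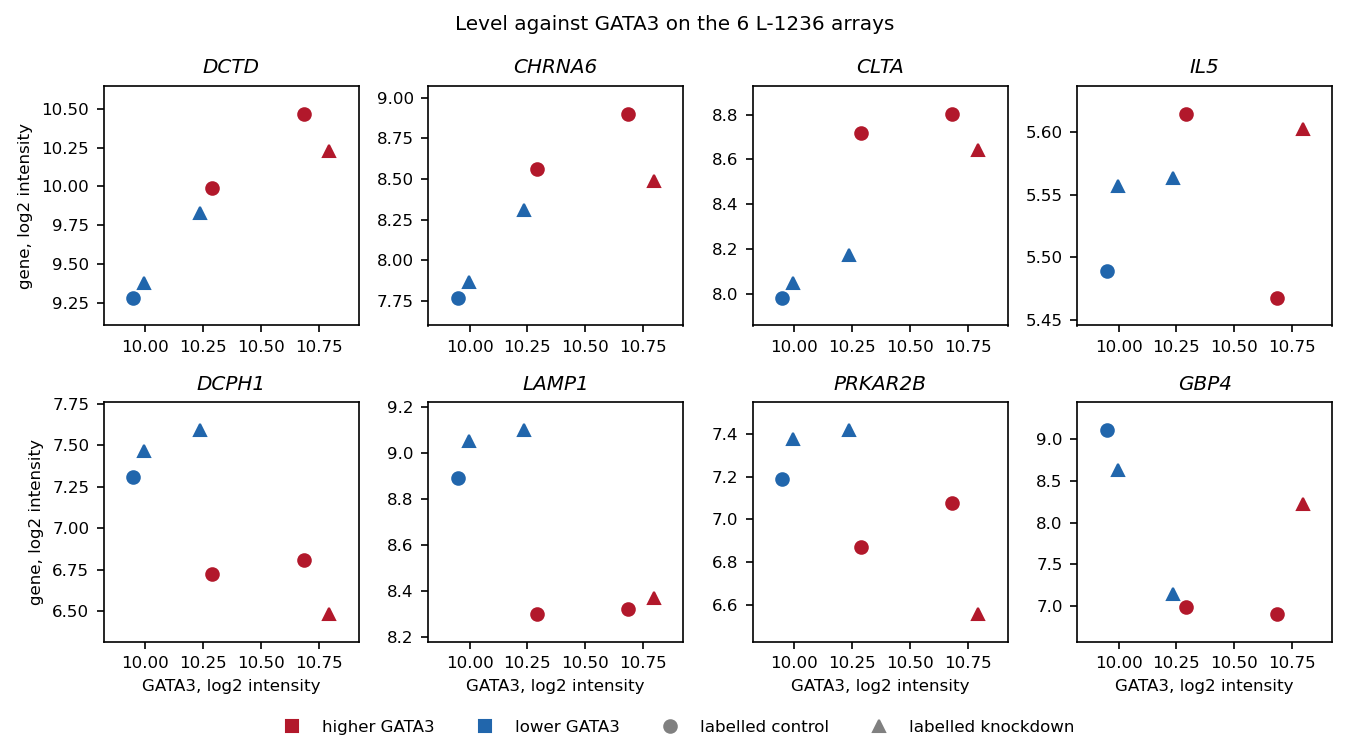
Level of 8 genes (y axis, log2 intensity) against GATA3 (x axis, log2 intensity) on the 6 L-1236 arrays, 3 higher and 3 lower U-HO1 genes with the smallest slope p, IL5 and GBP4. DCTD climbs with GATA3, LAMP1 falls into 2 levels, and IL5 spans 5.47 to 5.61 only.

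The labels were compared once more with the sides taken into account. In U-HO1, 0 of 32321 probe sets met the submitters' criteria (FDR up to 25% and 1.5-fold or more) between knockdown and control labels by limma (0%), and 339 (1.05%) had an unadjusted p under 0.05, or 705 without control 2, 692 without control 3 and 527 without knockdown 1. With the side as a block on the 6 U-HO1 arrays the counts were 0 and 348 (1.08%). The label difference of IL5 was -0.35 (SE 0.33) without and -0.01 (SE 0.24) with the block. That of GATA3 itself was -0.32 (SE 0.31) without and -0.04 (SE 0.11) with it. GATA3, which the shRNA targets, set the sides, so the block also takes up any label difference that follows GATA3. The values with the block therefore cannot show whether IL5 follows the label. Among positive label differences SSTR5-AS1, an antisense transcript, had the smallest p with the block, at 0.64 (SE 0.13, limma adjusted p = 1).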

How the data were processed

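The deposited table holds 1 log2 value per probe set and array, which the authors had normalized before deposit. The log base is read from the range of 3.86 to 13.99, since no source used here gives it, so folds depend on it. The submitters' processing notes name R 2.8.1. For background correction, normalization and probe summary the method is not given in the sources used here. Of 32321 probe sets, 19158 have 1 gene symbol in the platform annotation, 1388 several and 11775 none there. The probe set with the highest mean over 12 arrays stood for each of 18404 genes, and none was named from several symbols.

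The arrays were grouped by GATA3 as described, and no test was made between the sides. Label and slope tests used limma 3.58.1 in R 4.3.3 (lmFit, eBayes) on the deposited log2 values, with Benjamini-Hochberg adjustment over all probe sets. The label fit took 12 arrays with 8 residual degrees of freedom, and the slope fit took the 6 L-1236 arrays with GATA3 as covariate and 4 residual degrees of freedom. Correlations used exact permutation of 720 pairings. The number of arrays limits the precision.

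Genes named are IL5, IL13, IL4, STAT4, CCL17, CCL22 and TNFRSF8, the 15 with the largest difference each way among genes without overlap and with a mean over 12 arrays of at least 7.04, up to 5 members of each list by size of difference, and the 3 smallest p each way of the fits. Genes outside this rule (members of lists chosen later, genes at the fold limit, genes called in both lines) were picked after their values were seen. The members and lists were chosen with earlier results of these data known. Both scripts of tests and descriptions were tested on simulated data. Alternatives were quantile normalization, median centring, no dim probe sets, 1 probe set per gene, a fold limit of 2, a replicate block, the label or the side as a covariate, another prior and leaving out each array.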

Additional observations from a re-analysis of the deposited data

How the results depend on the processing

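The counts of called probe sets depended on single arrays more than on scaling. Leaving out 1 U-HO1 array at a time, the count called higher ran from 28 to 59 and that called lower from 46 to 127, with fewer arrays on a side to overlap, and without control 2, control 3, knockdown 1 or knockdown 2 a count moved by over 1.5 times. With a fold limit of 2, 1 probe set was called higher (IL5) and 0 lower. Under the other settings run, counts stayed within 1.5 times. Label counts by the submitters' criteria and slope counts at an adjusted p under 0.05 were 0 under every alternative run, the replicate block included, where 357 probe sets for the label and 2318 for the slope had an unadjusted p under 0.05. By the submitters' criteria the slope count was 2, and ran from 0 to 2 over the alternatives. Deviations of same-numbered arrays from the means of their 3 arrays correlated at r of -0.17, 0.06 and 0.32 in U-HO1 and 0.17, -0.40 and -0.22 in L-1236. With so few arrays these values cannot show whether same-numbered arrays were prepared together. Of 1472 recomputed gene differences 1471 moved by less than the spread between arrays (LAMP1 moved to -0.74 under quantile normalization), of 296 list medians 274 did, and 0 called values changed sign. With 3 arrays on a side and no background readings in the table, small differences of dim genes such as IL4 cannot be judged.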

Other observations

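Genes with a ZNF symbol, mostly Krüppel-type zinc-finger repressors, were gathered as a list after ZNF138 and ZNF480 had been seen among the 15 lower genes. Of 494 measured, 57 were lower and 19 higher without overlap on the higher-GATA3 U-HO1 arrays, with a median difference of -0.02, against 6.29% and 5.73% of all genes. All 7 of them past the fold limit were lower, against 0.201% lower and 0.136% higher of all genes. The 7 include ZNF138 and ZNF480, which prompted the list. On the 3 L-1236 arrays with higher GATA3, 52 were lower and 20 higher without overlap, with a median of -0.01, against 7.14% and 8.09% of all genes. ZNF253, ZNF766 and the prompting ZNF480 passed the fold limit in both lines. ZNF766 read 7.78 to 7.92 on the higher and 8.41 to 8.56 on the lower side in U-HO1, and 7.79 to 8.14 against 8.58 to 8.65 in L-1236.

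CD164, a sialomucin of endosomes and the cell surface, read 10.97 to 11.03 on the higher-GATA3 and 11.47 to 11.73 on the lower-GATA3 U-HO1 arrays, and 10.17 to 10.82 against 11.04 to 11.23 in L-1236. DYNLT3, a light chain of cytoplasmic dynein, read 7.63 to 7.77 against 8.33 to 8.41 in U-HO1 and 7.56 to 7.83 against 8.24 to 8.49 in L-1236. UHMK1, a kinase of splicing factors, read 8.87 to 9.32 against 9.78 to 9.86 in U-HO1 and 9.36 to 9.54 against 10.06 to 10.27 in L-1236. These genes were picked among those called in both lines. That choice itself set that each of the 12 arrays was on the side of its GATA3 rank. DUSP6, a phosphatase of ERK, and JUND were higher without overlap in both lines, with differences of 0.37 and 0.26 in U-HO1 and 0.56 and 0.51 in L-1236. MCL1, TNFRSF10B and STAT6 were lower without overlap in both, at -0.35, -0.31 and -0.40 in U-HO1 and -0.51, -0.39 and -0.46 in L-1236.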
